A study of Mus musculus with 24 samples.

Results

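The transcript levels of 10 genes of MHC class I antigen presentation and CD1d lipid presentation were followed across all 8 strain and treatment groups of a muscle injury study, to set differences between 2 mouse strains beside differences between treatments. The genes are the class I heavy chain genes H2-D1, H2-K1, H2-Q4, H2-Q7, H2-Q10 and H2-T23, the light chain gene B2m, the peptide transporter genes Tap1 and Tap2, and Cd1d1. They were taken from the deposited table by symbol, and all 10 were among its 14159 named genes. The libraries came from whole quadriceps muscle of young adult females of the C57BL/6 strain, called B6 here, and of the MRL/MpJ strain, called MRL, with 3 libraries per group and 24 libraries in total. Within each strain 1 group was left uninjured, and the other 3 had a volumetric muscle loss injury, in which a piece of the quadriceps was cut out. The defect was filled with saline (the control injury), with ECM, a decellularized extracellular matrix of porcine small intestine, or with PE, a polyethylene powder, and injured muscle was taken 21 days later. The labels name no transgene, deletion or pooling, and the study's methods describe the 24 samples as independent.

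Class I molecules display peptides from inside the cell to CD8 T cells and to receptors of natural killer cells. A polymorphic heavy chain pairs with β2-microglobulin, the product of B2m, and is loaded with peptides that the TAP1 and TAP2 transporter carries into the endoplasmic reticulum. H2-K1 and H2-D1 encode the classical heavy chains, while H2-Q4, H2-Q7, H2-Q10 and H2-T23 are nonclassical class Ib genes. CD1d also pairs with β2-microglobulin, but presents lipids to natural killer T cells. The heavy chain genes differ between inbred strains by haplotype. B6 carries haplotype H2-b and is the strain of the reference genome, whereas MRL carries H2-k. A strain difference in these genes therefore cannot be told apart here from a difference in how well reads of each haplotype match the B6 reference transcripts.

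All members but B2m and Cd1d1 lie on chromosome 17, within the major histocompatibility complex, according to the GENCODE annotation of GRCm39, the build that the study's processing notes name. H2-K1 occupies chr17:34214987-34219321 on the minus strand and H2-D1 chr17:35481691-35486475 on the plus strand. Between them lie Tap1 at chr17:34405996-34416199 and Tap2 at chr17:34422501-34435829, both on the plus strand. The Q region holds H2-Q4 (chr17:35598586-35604274), H2-Q7 (chr17:35658131-35662749) and H2-Q10 (chr17:35780959-35785460), all on the plus strand, and H2-T23 lies at chr17:36340229-36345571 on the minus strand. B2m lies at chr2:121977957-121983594 on the plus strand, and Cd1d1 at chr3:86903132-86906770 on the minus strand. All 10 are annotated as protein-coding, and the values are totals over the spliced transcripts of each gene.

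The coding sequences of the 6 heavy chain members are close to each other, which bears on every value below. The identity of the coding sequence to that of H2-K1 was 91.5% for H2-D1, 90.1% for H2-Q4, 88.2% for H2-Q7, 87.8% for H2-Q10 and 81.2% for H2-T23. Below, the 60 aligned bases that differ least among the 6 genes are shown first, for the genes whose bases differ from those of H2-K1, in lower case, with bases that differ from H2-K1 in capitals. The B6 reference letters of H2-D1, H2-Q10 and H2-T23 are the same as those of H2-K1 in this stretch, which covers coding bases 673 to 732 of H2-K1.
H2-K1: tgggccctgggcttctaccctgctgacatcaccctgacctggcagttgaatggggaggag
H2-Q4: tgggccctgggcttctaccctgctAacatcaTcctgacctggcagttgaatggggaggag
H2-Q7: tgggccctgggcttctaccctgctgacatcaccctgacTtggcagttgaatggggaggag

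The 60 aligned bases that differ most begin at coding base 474 of H2-K1, and they are shown because reads from such stretches tell the genes apart. The number of bases that differ from H2-K1 was 14 in H2-D1, 12 in H2-Q4, 13 in H2-Q7, 13 in H2-Q10 and 24 in H2-T23, again in capitals.
H2-K1: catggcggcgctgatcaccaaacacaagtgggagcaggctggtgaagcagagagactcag
H2-D1: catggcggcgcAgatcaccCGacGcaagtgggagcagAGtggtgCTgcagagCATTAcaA
H2-Q4: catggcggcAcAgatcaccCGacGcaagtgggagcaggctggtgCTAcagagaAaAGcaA
H2-Q7: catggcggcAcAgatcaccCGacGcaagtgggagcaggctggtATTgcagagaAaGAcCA
H2-Q10: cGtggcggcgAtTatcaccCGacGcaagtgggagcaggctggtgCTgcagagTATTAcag
H2-T23: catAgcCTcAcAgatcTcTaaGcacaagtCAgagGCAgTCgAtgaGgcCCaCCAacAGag

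The authors assigned reads with kallisto, which compares 31-base words of a read with those of the transcripts. Words were counted here in the GENCODE vM39 transcripts. The authors' index held Ensembl GRCm39 cDNA, and a separate Ensembl annotation gave the genes, so the shares in their assignment may differ. Of the 31-base words in the protein-coding transcripts of a gene, the share also present in transcripts of at least 1 other annotated gene was 41.2% for H2-K1, 47.8% for H2-D1, 60.5% for H2-Q4, 44.2% for H2-Q7, 36.8% for H2-Q10 and 38.8% for H2-T23. Counted over the genes of the deposited table alone, the shares were 25.6% for H2-K1, 25.0% for H2-D1, 44.9% for H2-Q4, 37.9% for H2-Q7, 33.2% for H2-Q10 and 19.6% for H2-T23. Among the other members the share over all annotated genes was 11.5% for Tap1, mostly with its head-to-head neighbour Psmb9, 12.1% for Tap2, 31.6% for Cd1d1, nearly all of it with its duplicate Cd1d2, and 0% for B2m. The levels of single heavy chain genes are thus uncertain where reads could be split between copies, while B2m has no such copy.

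The values are log2 CPM (counts relative to the library total, which the authors adjusted by a scaling factor per library), and levels are given below as CPM with the small prior count removed. Because CPM is not per length, levels were compared between libraries and not between genes. A gene was called in a comparison when its adjusted p was under 0.05 in limma, over all 14159 genes. The lowest Pearson correlation of a library with another of its group was between 0.904 and 0.967 in 7 groups, but 0.812 between replicates 1 and 2 of MRL PE. The summed CPM of 5 leukocyte markers was 3043 in MRL PE replicate 2, against 56.0 and 68.3 in the other MRL PE libraries. In that library the summed CPM of 5 adipocyte markers was 332, against 3849.9 and 2529.5. The summed CPM of 8 muscle fibre markers ran from 27115 in MRL PE replicate 2 to 171770.0 in MRL uninjured replicate 3, so muscle RNA was found in all libraries. Calls of single members that change when MRL PE replicate 2 is left out are given both ways. In whole muscle, fewer cells of a type and less RNA per cell cannot be told apart.

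The members fell into genes whose variance followed strain and genes whose variance followed treatment. Strain took 92.3% of the variance of log2 CPM over the 24 libraries in H2-Q7, 77.8% in H2-D1 and 61.5% in H2-K1. Treatment took 67.5% in H2-T23, 64.2% in B2m and 58.7% in Tap2, in which strain took 5.08%, 4.15% and 0.02%. Tap1 was between them, with 29.5% for strain and 41.3% for treatment, and H2-Q4 had 17.8% and 36.5%. In Cd1d1 the spread between libraries of a group took 62.6%, and in H2-Q10 44.4%, the highest shares among the members. Over all genes the medians were 6.50% for strain, 28.5% for treatment and 48.6% for the spread between libraries of a group. The split is a description and carries no test.

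**Figure D1:**
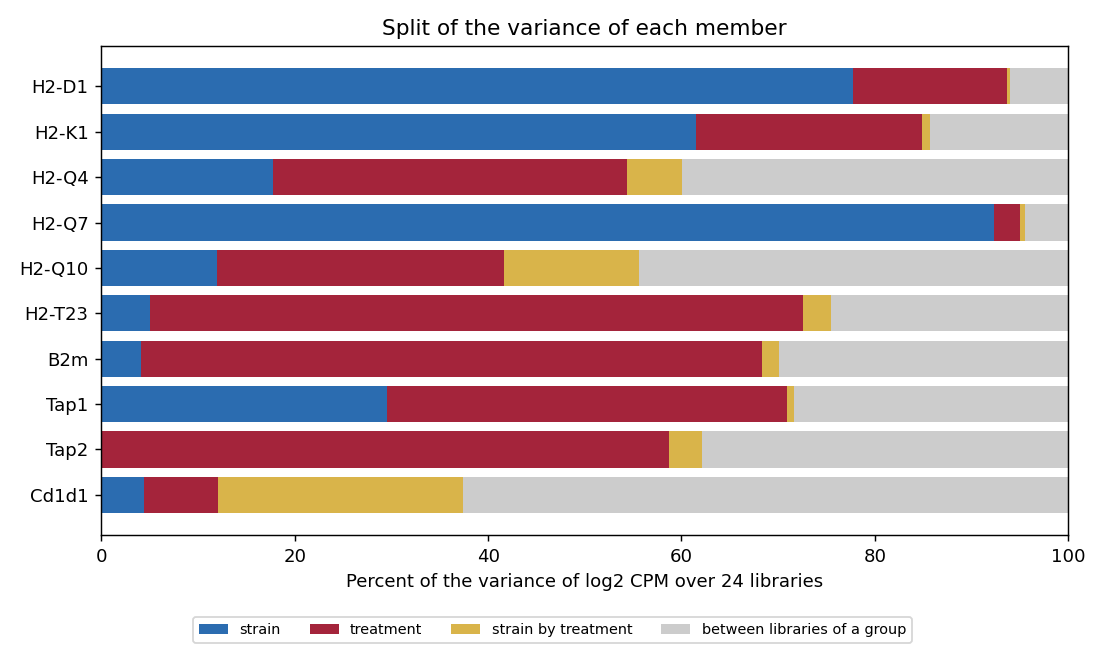
Share of the variance of log2 CPM (percent, horizontal axis) taken by strain, treatment, their combination and the spread between the 3 libraries of a group, for each of the 10 members. Strain takes most of the bar in H2-Q7, H2-D1 and H2-K1, while treatment takes most of it in H2-T23, B2m and Tap2.

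H2-D1, a classical heavy chain gene, was lower in MRL muscle in each treatment and higher with PE in B6 muscle. In B6 libraries its CPM was 159.8, 354 and 175 without injury, 267, 217 and 199.97 with saline, 222, 187 and 395 with ECM and 749, 1384 and 596 with PE. The corresponding MRL values were 21.8, 35.1 and 18.4, then 36.9, 21.8 and 28.6, 34.5, 24.8 and 23.3, and 52.5, 150.2 and 50.3. The highest MRL library, PE replicate 2, was below the lowest B6 library of any treatment. The difference MRL minus B6 on the log2 scale was -3.15 ± 0.42 (SE) without injury, -2.99 with saline, -3.22 with ECM and -3.53 with PE. The adjusted p was 6.72e-05, 0.000112, 4.42e-05 and 1.3e-05, and over the mean of 4 treatments the level was 9.34-fold lower in MRL (adjusted p = 5.19e-10). Without MRL PE replicate 2, the difference in PE-treated muscle was -4.05, adjusted p = 8.24e-07.

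H2-K1, the other classical heavy chain gene, was also lower in MRL muscle. In B6 libraries it was at 144, 341 and 146 CPM without injury, 242, 191 and 175 with saline, 166, 175 and 345 with ECM and 429.9, 660.5 and 312 with PE. In MRL libraries the levels were 36.3, 78.5 and 35.9 CPM, 80.0, 32.1 and 29.5, 64.9, 38.9 and 64.2, and 145, 210.3 and 105 in the same order. Within every treatment all MRL libraries were below all B6 libraries, although 2 of the 3 MRL PE libraries were above the lowest B6 library without PE. The difference was -2.04 without injury (adjusted p = 0.0113), -2.24 with saline (adjusted p = 0.00483), -1.98 with ECM (adjusted p = 0.0137) and -1.60 with PE, where it missed the threshold (adjusted p = 0.0522). It passed in PE-treated muscle without MRL PE replicate 2 (-1.85, adjusted p = 0.00893). Single libraries also decided other calls. The uninjured difference missed the threshold without B6 replicate 2 (-1.63, adjusted p = 0.0953), MRL replicate 1 (-1.86, adjusted p = 0.0681) or MRL replicate 3 (-1.85, adjusted p = 0.0798), and the ECM difference without B6 replicate 3 (-1.64, adjusted p = 0.108) or MRL replicate 2 (-1.74, adjusted p = 0.0982). Over the mean of 4 treatments H2-K1 was 3.91-fold lower in MRL (adjusted p = 2.13e-06).

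H2-Q7 encodes a Qa-2 heavy chain, which is anchored to the membrane by a lipid. Its levels in B6 muscle were 20.7, 36.9 and 20.5 CPM without injury, 41.1, 24.4 and 39.9 with saline, 12.2, 21.5 and 48.6 with ECM and 39.3, 44.9 and 34.8 with PE. MRL muscle had 1.32, 2.38 and 1.43 CPM, 1.59, 1.27 and 1.44, 1.12, 0.972 and 1.34, and 2.62, 5.15 and 1.48. All 12 MRL libraries were thus below the lowest B6 library, and most were near the 1 CPM that the authors' filter asked for in at least 3 libraries, a filter that all 10 members passed. The difference ran from -4.51 with saline to -3.82 with PE, with adjusted p from 6.02e-07 to 7.13e-06, and the mean over 4 treatments was -4.11 ± 0.22 (17.3-fold lower in MRL, adjusted p = 1.51e-11). The difference of H2-Q7 with PE was -4.27, adjusted p = 1.35e-06, when MRL PE replicate 2 was left out.

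The other heavy chain members did not differ by strain at the threshold. H2-Q4 was at 28.6, 41.0 and 23.01 CPM in uninjured B6 muscle and 23.05, 42.1 and 17.0 in uninjured MRL muscle. With saline the values were 38.8, 39.3 and 39.5 in B6 and 34.4, 16.7 and 16.4 in MRL, and these groups did not overlap. The strain difference of H2-Q4 over the mean of 4 treatments was -0.49 (95% interval -0.85 to -0.13, adjusted p = 0.062), and it passed without B6 ECM replicate 1 (-0.55, adjusted p = 0.0453), MRL uninjured replicate 2 (-0.58, adjusted p = 0.0225) or MRL saline replicate 1 (-0.58, adjusted p = 0.0204). In these fits 12.9%, 13.4% and 17.6% of all genes were called. H2-T23 encodes Qa-1, a ligand of CD94/NKG2 receptors. Its CPM in uninjured muscle was 18.4, 23.5 and 18.5 in B6 and 16.6, 31.4 and 16.4 in MRL, which overlapped, and its mean strain difference was -0.50 (adjusted p = 0.186). In PE-treated muscle H2-T23 was at 117, 244 and 102 CPM in B6 and 48.7, 218 and 35.1 in MRL, where replicate 2 was in the B6 range and the others were below it. Without MRL PE replicate 2 the PE strain difference of H2-T23 was -1.79, adjusted p = 0.00298, and that over the mean of 4 treatments -0.69, adjusted p = 0.00759. In that fit 24.6% and 32.7% of all genes were called.

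**Figure D2:**
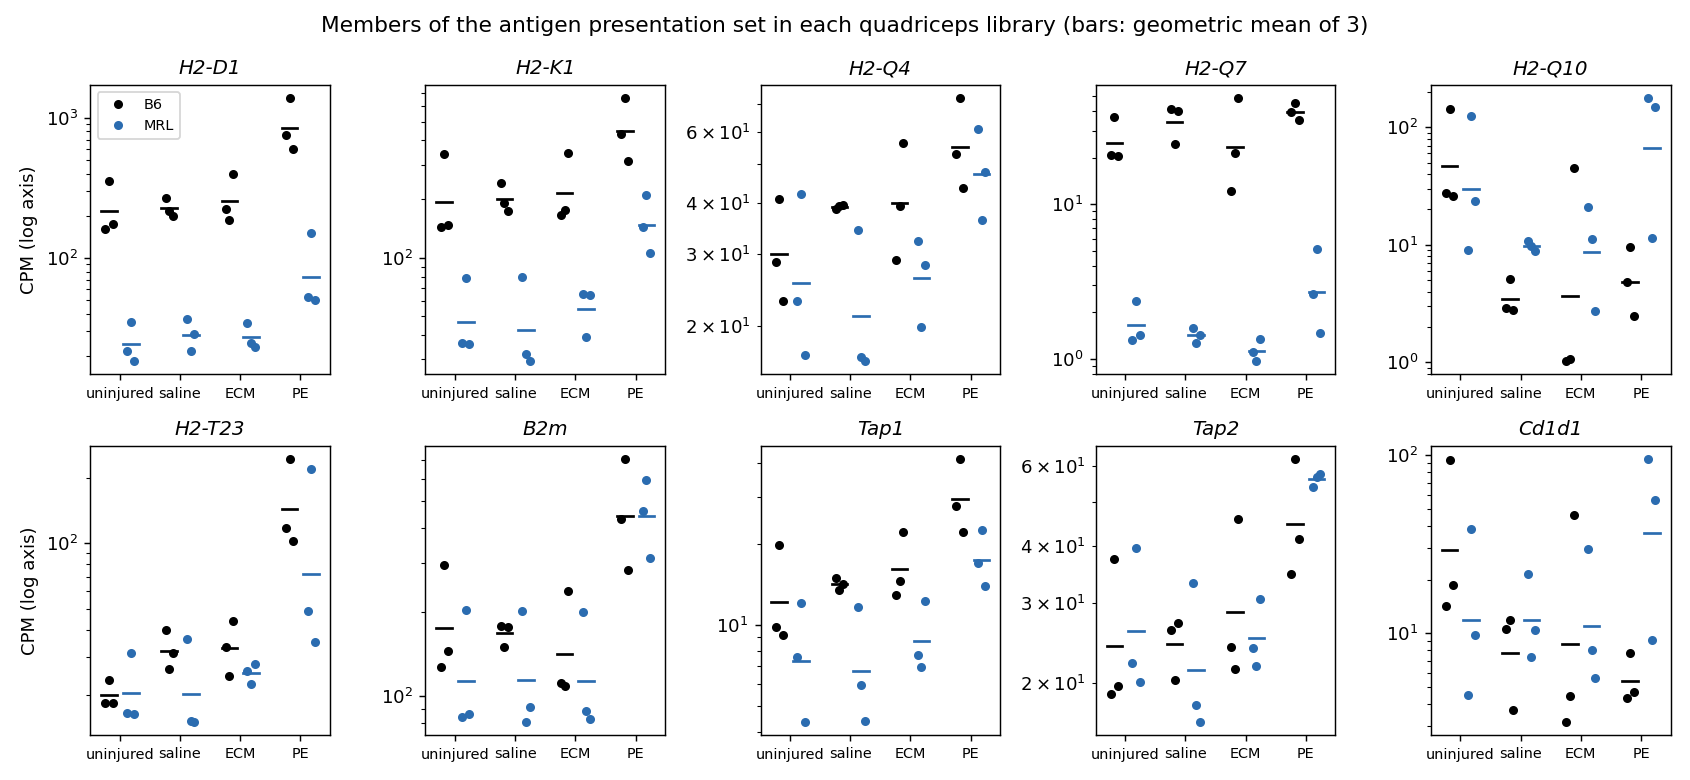
CPM of each member (log axis) in every library, by treatment, with B6 in black and MRL in blue; horizontal bars are geometric means of 3 libraries. H2-D1, H2-K1 and H2-Q7 are lower in MRL in every treatment, B2m is highest with PE in both strains, and Cd1d1 and H2-Q10 vary widely within groups.

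Because reads can be split between near-identical copies, the CPM of all 14 heavy chain genes in the table was also summed per library. The sum was 447, 1016 and 458 CPM in uninjured B6 muscle and 136, 373 and 148 in uninjured MRL muscle. With saline it was 699, 567 and 553 in B6 and 257, 127 and 135 in MRL, and these groups did not overlap. The sum was 3.20-fold lower in MRL over the mean of 4 treatments (-1.68 ± 0.21 on the log2 scale, adjusted p = 8.62e-06, in a fit where the sum replaced the single genes). The difference was -1.60 without injury (adjusted p = 0.045), -1.88 with saline (adjusted p = 0.0145), -1.75 with ECM (adjusted p = 0.0243) and -1.48 with PE, which missed the threshold (adjusted p = 0.0574). Reads moved between the 14 genes do not change this sum, while MRL reads that matched no reference transcript are missing from it. Reads assigned to similar transcripts outside the 14 genes are missing too. The gene that shares most 31-base words with H2-K1 in GENCODE vM39, Gm53999 (26.8%), is outside them. The make-up of the sum also differed. H2-D1 held between 36.2% and 51.3% of the sum in the B6 groups and between 12.6% and 17.6% in the MRL groups. These are group means of the shares per library. H2-Q4 held 3.34% to 6.54% in B6 and 8.51% to 13.8% in MRL.

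B2m, whose reads have no near-identical copy, showed no strain difference at the threshold in any treatment. It was at 127, 293 and 144 CPM in uninjured B6 muscle, 177, 149.9 and 177 with saline, 111, 108 and 238 with ECM and 429, 707 and 281 with PE. The MRL levels were 83.8, 202 and 85.8 CPM, 202, 80.7 and 91.5, 199, 88.0 and 82.9, and 458, 594 and 312. The strains overlapped in every treatment, and in both strains all PE libraries were above all saline libraries. The mean strain difference was -0.38 ± 0.23 (95% interval -0.87 to 0.12, adjusted p = 0.279), and the 95% interval of the difference with PE was -0.99 to 0.98. With MRL PE replicate 2 left out, the difference with PE was -0.22, adjusted p = 0.787.

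The transporter genes differed from each other by strain. Tap1 was at 9.83, 19.8 and 9.15 CPM in uninjured B6 muscle, 15.0, 13.4 and 14.2 with saline, 12.9, 14.6 and 22.2 with ECM and 27.7, 41.4 and 22.04 with PE, against 7.58, 12.003 and 4.35, then 11.7, 5.99 and 4.39, 7.73, 6.97 and 12.2, and 16.9, 22.4 and 14.0 in MRL. MRL libraries were below all B6 libraries with saline and with ECM, and overlapped them otherwise. Over the mean of 4 treatments Tap1 was 1.81-fold lower in MRL (-0.85 ± 0.20, adjusted p = 0.00587), while no single treatment passed (adjusted p from 0.222 to 0.564). Tap2 was at 18.9, 37.5 and 19.7 CPM in uninjured B6 muscle and 22.1, 39.6 and 20.1 in uninjured MRL muscle, with saline at 26.1, 20.3 and 27.1 and 33.2, 17.9 and 16.4, and with PE at 34.7, 62.3 and 41.6 and 54.0, 56.8 and 57.8. These groups overlapped between strains, and the mean strain difference of Tap2 was 0.02 (95% interval -0.34 to 0.37, adjusted p = 0.958).

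Counted over the members, 3 of 10 were called in uninjured muscle, where 2.6% of all genes were called, and all 3 were lower in MRL. These were H2-D1, H2-K1 and H2-Q7, and the same 3 were called with saline (2.51% of all genes) and with ECM (2.66%). With PE 2 members were called, H2-D1 and H2-Q7, against 3.35% of all genes. Over the mean of 4 treatments 4 members were called, all lower in MRL, with Tap1 added, and 15.2% of all genes were called. Without MRL PE replicate 2, 6 members were called in the PE comparison, but 24.6% of all genes then were. With library weights 8 members were called with saline, 8 with PE and 9 over 4 treatments, beside 41.8%, 56.5% and 56.9% of all genes. The summed leukocyte markers in uninjured muscle were 43.0, 37.3 and 45.6 CPM in B6 and 42.7, 54.5 and 26.9 in MRL, which overlapped. Of the T cell markers 3 of the 5 measured were lower in MRL over the mean of 4 treatments, as were 3 of 7 macrophage markers, 0 of 5 leukocyte markers, 0 of 5 adipocyte markers, 0 of 4 endothelial markers and 0 of 8 muscle fibre markers. Their part in the strain differences was not tested.

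**Figure D3:**
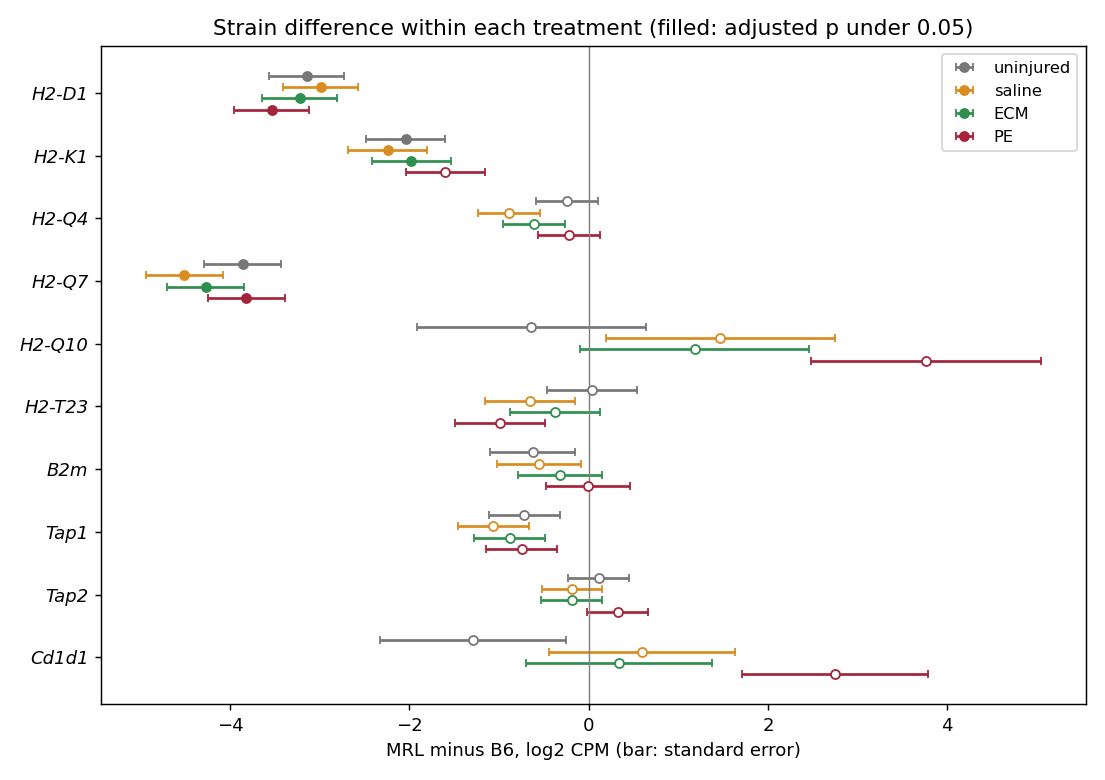
Difference MRL minus B6 in log2 CPM (horizontal axis) for each member within each treatment; bars are standard errors and filled points have an adjusted p under 0.05. H2-D1 and H2-Q7 are filled in all 4 treatments, H2-K1 in 3, and the other members in none.

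Most of the peptide presentation members were higher with PE when both strains were averaged. Over the mean of both strains, 7 of 10 members rose with PE against saline, where 24.2% of all genes were called and the median log2 difference was 1.34 for the members and 0.05 for all genes. H2-T23 rose by 1.99 ± 0.36 on the log2 scale (3.97-fold, adjusted p = 0.00496), B2m by 1.67 ± 0.33 (3.18-fold, adjusted p = 0.00592) and H2-D1 by 1.64 ± 0.30 (3.12-fold, adjusted p = 0.00496). H2-K1 rose by 1.48 (adjusted p = 0.00709), Tap1 by 1.20 (adjusted p = 0.00942), Tap2 by 1.13 (adjusted p = 0.00707) and H2-Q4 by 0.83 (adjusted p = 0.0228). H2-Q7, H2-Q10 and Cd1d1 did not pass, with 0.55, 1.63 and 0.55 and adjusted p of 0.189, 0.19 and 0.608. The saline libraries of H2-T23 were at 39.7, 26.4 and 31.2 CPM in B6, below all B6 PE libraries given above, and at 36.2, 15.3 and 15.1 in MRL, where the highest lay above MRL PE replicate 3. H2-Q4 with PE was at 52.9, 72.6 and 43.7 CPM in B6 and 60.9, 36.4 and 47.7 in MRL, above the saline libraries of the same strain. The summed heavy chains rose 3.16-fold (adjusted p = 0.00495). H2-Q4 lost its call without B6 PE replicate 2 (0.73, adjusted p = 0.0792), MRL saline replicate 2 (0.74, adjusted p = 0.0648) or MRL saline replicate 3 (0.73, adjusted p = 0.0641). Without MRL PE replicate 2, 7 members were still called, with H2-T23 at 1.59, adjusted p = 0.00161, and 13.3% of all genes were. A fit of the compared groups alone called 4 members.

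Within B6 mice 2 of 10 members were called between PE and saline, H2-T23 (2.16 ± 0.50, adjusted p = 0.0245) and H2-D1 (1.91 ± 0.42, adjusted p = 0.0222), against 5.97% of all genes. The PE libraries of 7 members lay above all saline libraries in B6, but the share of all genes that separated in this way was not counted. No member was called without any 1 of B6 saline replicates 1, 2 and 3 or B6 PE replicates 1 and 2, and 3 were called without B6 PE replicate 3. The share of all genes called moved too, to between 0.0141% and 0.89% in the fits with 0 members and to 9.05% in that with 3. For H2-D1 the difference without B6 PE replicate 2 was 1.56, adjusted p = 0.211. Within MRL mice limma called 0 members and 0% of all genes, although the unadjusted p was below 0.05 for 8 members and for 3298 of all genes. For 7 members every MRL PE library was above every MRL saline library, again without a count of such separation over all genes. B2m, H2-K1 and Tap2 had the smallest adjusted p there, 0.097, with log2 differences of 1.94, 1.80 and 1.39. Without MRL saline replicate 1, 6 members passed, among them B2m (2.35, adjusted p = 0.0307), and without MRL PE replicate 3 H2-T23 did (2.34, adjusted p = 0.0486). In these fits 5.47% and 0.855% of all genes were called. With library weights in limma, 8 members in B6 and 9 in MRL were called, but so were 68.1% and 23.3% of all genes.

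Leukocyte markers moved with PE, but not evenly over libraries. Their summed CPM was 80.8, 67.2 and 70.6 with saline and 1246, 2336 and 731 with PE in B6 mice. In MRL mice it was 102, 50.6 and 62.5 with saline and 56.0, 3043 and 68.3 with PE. Thus all B6 PE libraries were above saline, whereas MRL PE replicates 1 and 3 were within the range of MRL saline. In those MRL PE libraries B2m was at 458 and 312 CPM, Tap2 at 54.0 and 57.8 and H2-K1 at 145 and 105, all above the highest MRL saline library. Their summed adipocyte markers were 3849.9 and 2529.5 CPM, above the 894 of the highest MRL saline library. All 5 leukocyte markers and all 7 macrophage markers passed over the mean of both strains, and Cd4 was 1 of 5 T cell markers that did. Of the muscle fibre markers, 3 of 8 fell with PE, 0 of 5 adipocyte and 0 of 4 endothelial markers passed, and the 4 B cell markers were not in the table. The part of these cells in the rise of the members was not tested.

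Correlations with the marker sums, after the mean of each strain was removed, differed among the members. Over the 24 libraries, which share injury, implant and library scaling, Pearson's r with the leukocyte sum was 0.937 for H2-T23, 0.883 for H2-D1, 0.672 for B2m and -0.287 for Cd1d1. Without MRL PE replicate 2 these were 0.904, 0.834, 0.561 and -0.277. They are descriptions and were not tested.

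**Figure D4:**
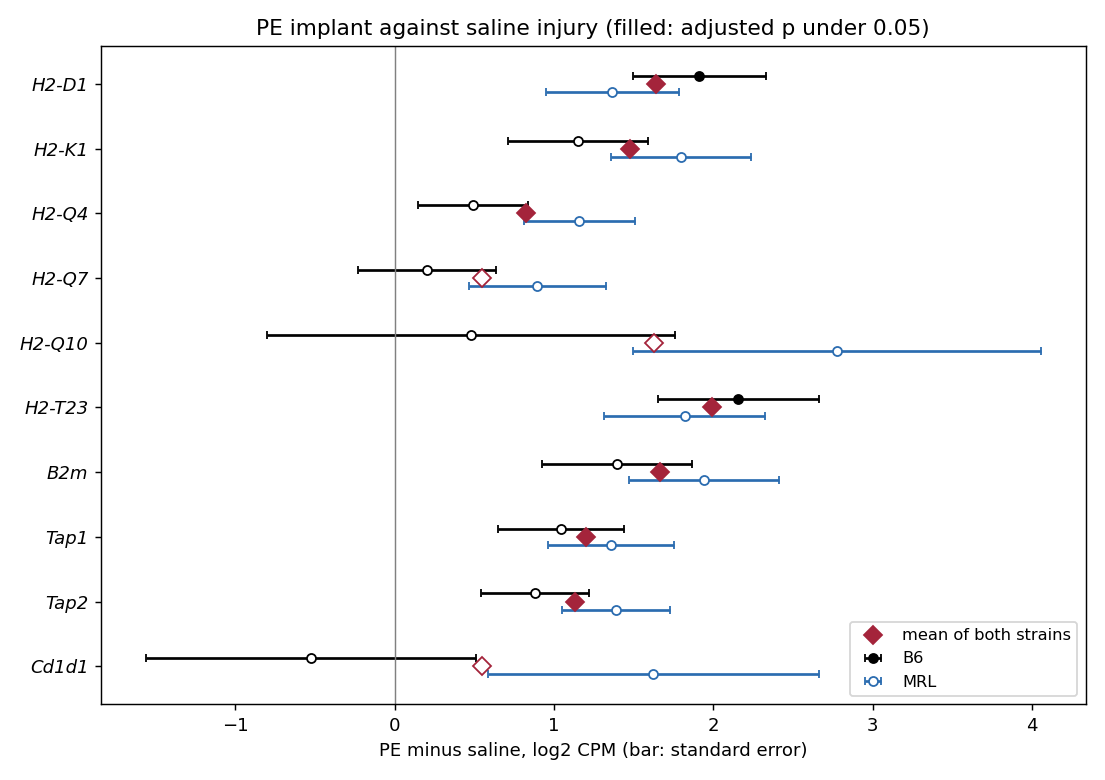
Difference PE minus saline in log2 CPM (horizontal axis) for each member in B6 (black), in MRL (blue) and over the mean of both strains (red diamonds); bars are standard errors and filled symbols have an adjusted p under 0.05. The diamonds are filled for 7 members, and in B6 H2-D1 and H2-T23 are filled.

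PE was also compared with ECM, so that 2 implants stood against each other. Over the mean of both strains 7 members rose with PE, against 24.9% of all genes. These were B2m (1.80, adjusted p = 0.00704), H2-T23 (1.81, adjusted p = 0.00752), H2-D1 (1.59, adjusted p = 0.00704), H2-K1 (1.24), H2-Q7 (0.98), Tap1 (0.93) and Tap2 (0.90). H2-Q4 was at 0.65 (adjusted p = 0.0562). This comparison and that with saline share the PE libraries. The count was 3 without B6 PE replicate 2, 4 without B6 ECM replicate 2, 5 without B6 ECM replicate 1, MRL ECM replicate 2 or MRL PE replicate 2, and 9 without B6 ECM replicate 3, when H2-Q4 (0.78, adjusted p = 0.0335) and H2-Q10 (2.54, adjusted p = 0.0247) were added. Without B6 PE replicate 3 the count was 8. The share of all genes called moved with the count, from 5.93% at 3 members to 27.4% at 8 and 25.6% at 9. H2-Q7 and Tap1 lost their calls in each of the fits with fewer than 7 calls. Within B6 mice 0 members were called (0.226% of all genes), with 5 members and 2911 genes at an unadjusted p under 0.05. Within MRL mice 0 were called either (0% of all genes by limma), with 9 members and 4022 genes at an unadjusted p under 0.05, and 5 members were called without MRL PE replicate 3, as were 12.3% of all genes.

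Injury with saline and the ECM implant left the members without a call. Between saline and uninjured muscle limma called 0 members and 0% of all genes in B6, 0% in MRL and 0% over both, with 1751, 439 and 1580 genes at an unadjusted p under 0.05. Without B6 saline replicate 2 the members still had 0 calls, while 3.22% of all genes were called in B6 and 2.2% over both strains. Among the members 1, H2-Q10, had an unadjusted p under 0.05 in B6 and over both strains, and 0 did in MRL. Its differences were -3.72 in B6 (adjusted p = 0.303) and -2.66 over both strains (adjusted p = 0.362). For B2m the 95% interval of the saline difference over both strains was -0.72 to 0.67 on the log2 scale, and for H2-K1 -0.70 to 0.61. Between ECM and saline 0 members were called, also at an unadjusted p under 0.05, against 0.0283% of all genes in B6, 0.00706% in MRL and 0.0283% over both. The interval of that difference over both strains was -0.82 to 0.57 for B2m and -0.57 to 0.67 for H2-D1, so the differences between PE and saline over both strains lay above it. ECM-treated muscle had 33.3, 24.5 and 43.8 CPM of H2-T23 in B6 and 26.0, 22.5 and 27.9 in MRL, 29.0, 39.5 and 56.4 and 32.2, 19.8 and 28.1 CPM of H2-Q4, and 24.05, 21.5 and 45.9 and 23.8, 21.8 and 30.6 CPM of Tap2. In each of these genes the ECM and saline libraries overlapped within both strains.

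Whether the strains responded differently was tested as an interaction. No member was called for the response to saline, ECM or PE, and limma called 0%, 0% and 0% of all genes, with 570, 320 and 614 at an unadjusted p under 0.05, none of them a member. For PE the response of MRL minus that of B6 was -0.55 for H2-D1 (95% interval -1.78 to 0.69), 0.65 for H2-K1 (-0.66 to 1.95), 0.55 for B2m (-0.84 to 1.94) and -0.34 for H2-T23 (-1.83 to 1.16), each with an adjusted p of 0.988. Each of these intervals reaches beyond 1 unit on at least 1 side. For the response to PE, 0 members but 4.41% of all genes were called without MRL PE replicate 2, with H2-D1 at -1.06, adjusted p = 0.289, H2-T23 at -1.14, adjusted p = 0.259 and Cd1d1 at 3.14, adjusted p = 0.242.

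In Cd1d1 and H2-Q10 the spread between libraries of a group took the largest share of the variance. Strain took 4.39% in Cd1d1 and 11.9% in H2-Q10, and treatment 7.71% and 29.7%. The strain-by-treatment shares, 25.3% and 14.0%, were the highest among the members, against a median of 6.80% over all genes. H2-Q10 is known as a soluble class I molecule, made mainly in liver. Cd1d1 was at 14.3, 94.1 and 18.7 CPM in uninjured B6 muscle, 10.6, 11.9 and 3.72 with saline, 3.19, 4.44 and 45.9 with ECM and 4.33, 7.75 and 4.66 with PE. In MRL it was at 4.48, 38.6 and 9.72, then 21.6, 7.35 and 10.43, 29.6, 8.08 and 5.59, and 95.4, 9.14 and 56.2 CPM. Single libraries stood high within their groups, namely replicate 2 of both uninjured groups, B6 ECM replicate 3, MRL saline replicate 1, MRL ECM replicate 1, and MRL PE replicates 1 and 3. H2-Q10 was at 27.4, 144 and 25.9 CPM in uninjured B6 muscle, 2.92, 5.13 and 2.80 with saline, 1.02, 1.07 and 45.3 with ECM and 4.79, 9.64 and 2.49 with PE, and in MRL at 9.11, 125 and 23.6, then 10.8, 9.77 and 8.85, 21.1, 11.2 and 2.74, and 178, 11.5 and 148. The same libraries stood high, except MRL saline replicate 1, which was near the others of its group. With PE all MRL libraries were above all B6 libraries in both genes, but the differences of 2.75 and 3.76 missed the threshold (adjusted p = 0.15 and 0.111). Without MRL PE replicate 2 they passed, at 3.74, adjusted p = 0.0148 for Cd1d1 and 5.03, adjusted p = 0.0084 for H2-Q10, when 24.6% of all genes passed. The strain difference of H2-Q10 over the mean of 4 treatments was 1.45 (adjusted p = 0.129), and it passed without MRL PE replicate 2 (1.76, adjusted p = 0.031, with 32.7% of all genes called) or B6 ECM replicate 3 (1.89, adjusted p = 0.0231, with 12.2% called). That of Cd1d1 was 0.60 (adjusted p = 0.443). The interaction for PE was 2.15 for Cd1d1 (95% interval -0.92 to 5.22) and 2.30 for H2-Q10 (-1.49 to 6.08), with an adjusted p of 0.988 each.

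The adipocyte markers moved with both genes. Their summed CPM was 633, 2944 and 1105 in uninjured, 425, 385 and 233 in saline-treated, 144, 228 and 1454 in ECM-treated and 133, 272 and 236 in PE-treated B6 muscle. In MRL muscle it was 203, 1823 and 504 without injury, 894, 379 and 364 with saline, 1130.0, 282 and 292 with ECM and 3849.9, 332 and 2529.5 with PE. The libraries named above for high Cd1d1 and H2-Q10 had the highest sums of their groups. With strain means removed, Pearson's r with the adipocyte sum over the 24 libraries was 0.979 for Cd1d1 and 0.894 for H2-Q10, against 0.044 for H2-D1, 0.353 for B2m and -0.134 for H2-T23, as a description. The part of adipocytes in the levels of Cd1d1 and H2-Q10 was not tested. Cd1d1 and H2-Q10 correlated at 0.9036 with each other, and H2-K1 with B2m at 0.9488, with Tap1 at 0.956 and with Tap2 at 0.9417.

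**Figure D5:**
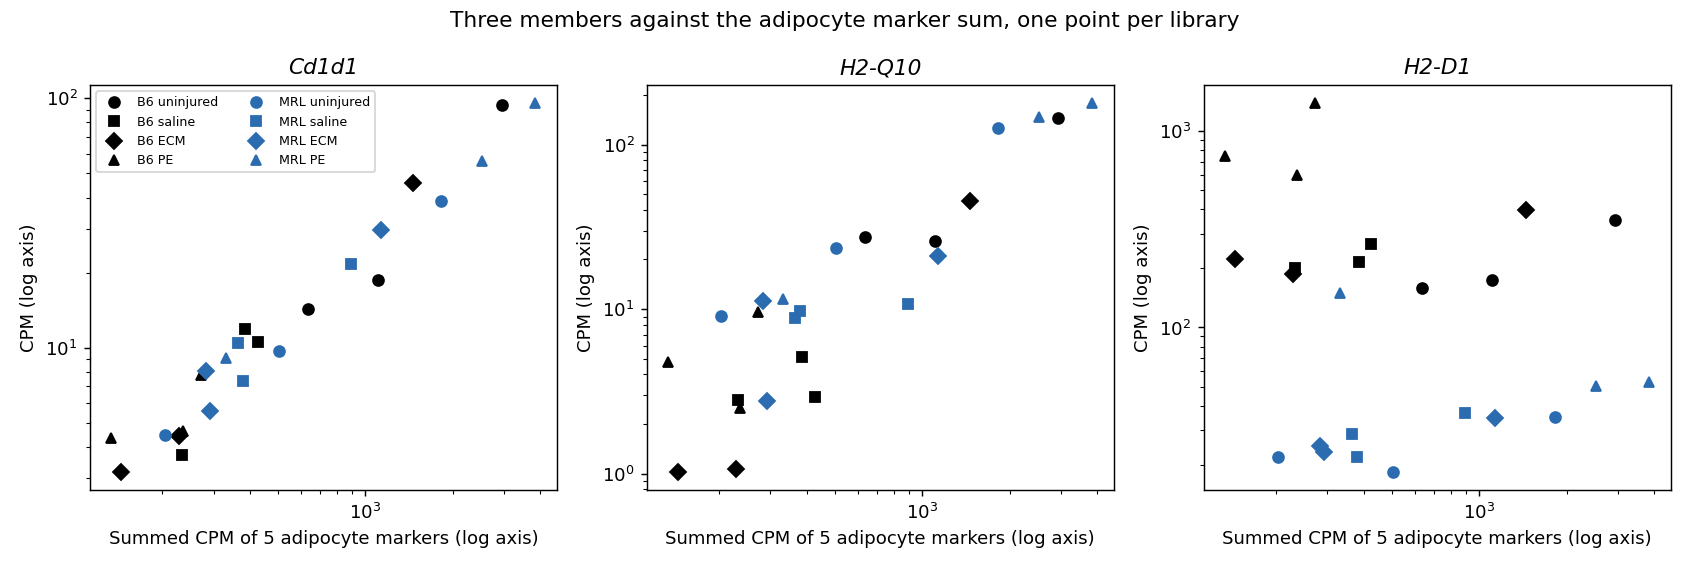
CPM of Cd1d1, H2-Q10 and H2-D1 (vertical log axes) against the summed CPM of 5 adipocyte markers (horizontal log axes), with 1 point per library, B6 in black, MRL in blue and symbols for treatment. Cd1d1 and H2-Q10 rise with the marker sum in both strains (r of 0.979 and 0.894 with strain means removed), while H2-D1 separates by strain.

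The genes most like the members over the 24 libraries, with strain means removed, were found for 5 members, of which H2-Q10 was added after its values were seen. The 5 genes most like Cd1d1 were Lipe (Pearson's r 0.980), which encodes hormone-sensitive lipase, Cdo1, Tusc5, Aoc3 and Adipoq (0.974), which encodes the fat hormone adiponectin. B2m was most like Cd302 (0.968), Esyt1, Lgals3bp, Rab32 and Pgd (0.958). H2-D1 was most like Itm2b (0.973), Myo5a, Man2b2, Mfsd12 and Anxa5, and H2-K1 most like Bcap31 (0.956), Npc2, Sh3bgrl, Ppp1r9b and Twf1. H2-Q10 was most like Agpat2 (0.958), Prkar2b, Nat8l, Elovl6 and Mme.

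Other class I genes outside the members were also compared between strains. Of 11 such genes in the table, 4 were lower and 2 higher in MRL over the mean of 4 treatments, in which 15.2% of all genes were called. H2-Q6, a Qa-2 gene beside H2-Q7, was at 13.2, 18.3 and 10.22 CPM in uninjured B6 muscle and at 0.187, 0.246 and 0.33 in uninjured MRL muscle, and its mean strain difference was -5.12 ± 0.23 (adjusted p = 1.57e-12). H2-Q1 went the other way, with 1.12, 4.398 and 1.87 CPM in uninjured and 5.98, 11.4 and 4.75 CPM in PE-treated MRL muscle, while in uninjured B6 muscle it was at 0.173, 0.162 and 0.155 CPM, near the 0.119 CPM that 3 counts make up. The uninjured MRL values of H2-Q6 were low as well, under the 1 CPM of the authors' filter. That filter asked for 3 libraries and could be met in 1 strain alone. The differences of H2-Q6 and H2-Q1 are therefore given as a description and not as separate support. MRL reads were assigned to transcripts of the B6 reference, and the part of this in the opposite directions was not tested.

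Genes that act around class I molecules were counted from lists, beside the same 15.2% of all genes. In the strain comparison over 4 treatments 0 of 7 peptide loading genes and 0 of 5 immunoproteasome genes passed. Of 11 class I regulators 3 were lower in MRL, among them the class I transactivator gene Nlrc5 (-1.53, adjusted p = 0.00795). Of 3 constitutive proteasome subunits Psmb5 was lower in MRL, with 93.1, 78.6 and 90.5 CPM in uninjured B6 and 31.7, 30.4 and 38.1 in uninjured MRL muscle (-1.77 ± 0.08, adjusted p = 1.83e-12). The lipid antigen pathway had 1 of 8 genes higher in MRL, Mttp (0.76, adjusted p = 0.00123), which encodes the lipid transfer protein that loads CD1d, and 1 lower. A list of 5 measured genes held CD8 and natural killer receptor genes and, beside them, the inhibitory receptor gene Pirb. Of these 4 were lower in MRL, among them Pirb (-2.59, adjusted p = 0.000268). The levels were low, with a summed CPM of 5.83, 5.63 and 5.46 in uninjured B6 and 1.77, 2.41 and 1.66 in uninjured MRL muscle. Klra2 and Klrd1 were at 0 in some MRL libraries.

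With PE against saline, over the mean of both strains, all 7 peptide loading genes rose, among them Pdia3 (1.17, adjusted p = 0.00998) and the tapasin gene Tapbp (0.95, adjusted p = 0.0132), with a median log2 difference of 0.77 against 0.05 for all genes. Of 5 immunoproteasome genes 4 rose, with Psmb8 at 1.31 (adjusted p = 0.012), while 1 of 3 constitutive subunits fell, Psmb7 (-0.52, adjusted p = 0.0258). Of 11 regulators 4 rose, and Nlrc5 was at 1.44 (adjusted p = 0.0505). The lipid antigen pathway had 6 of 8 genes higher, led by the cathepsin S gene Ctss (3.15, adjusted p = 0.0115) and by Gm2a (2.34, adjusted p = 0.00496), and Cd1d1 itself was not called. Of 11 other class I genes 4 rose, with H2-T24 at 1.82 (adjusted p = 0.00524), and 3 of 5 receptor genes rose, among them Pirb (2.44, adjusted p = 0.0113). These shares stand beside the 24.2% of all genes called, and the summed leukocyte markers given above moved with them.

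The 250 bases before the annotated start of each member's main transcript were searched on both strands for letters of known class I promoter elements, because several members moved together with PE. The interferon-stimulated element core GAAANNGAAA was in 0 of 10 members and in 3.32% of 21751 protein-coding promoters. Another interferon-stimulated form, AAGTGAAA, which was chosen after the first search and whose letters can overlap those of the former, was in 4 of 10 members and in 1.45% of all promoters. The NF-kB core GGGATTCCC was in 2 members, H2-K1 and H2-Q7, and in 0.340% of all promoters. Both H2-Q7 and H2-Q10, which did not pass for PE against saline, and H2-K1 and H2-Q4, which did, held AAGTGAAA. These are heavy chain genes with close sequences, also around the matches, so their matches are not independent of each other. The same holds for the NF-kB matches, and the shares of all promoters are thus no measure of enrichment. The stretches are shown 5′ to 3′ on the strand of the gene, with the matched letters in capitals (AAGTGAAA appears as its reverse complement). They lie at chr17:34219392-34219443 (minus strand) for H2-K1, and on the plus strand at chr17:35598428-35598459 for H2-Q4, chr17:35657987-35658037 for H2-Q7 and chr17:35780819-35780850 for H2-Q10, in GRCm39.
H2-K1: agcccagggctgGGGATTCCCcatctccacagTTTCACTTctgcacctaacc
H2-Q4: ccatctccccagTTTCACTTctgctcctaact
H2-Q7: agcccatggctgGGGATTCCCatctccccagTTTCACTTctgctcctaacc
H2-Q10: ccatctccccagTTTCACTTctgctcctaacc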

How the data were processed

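Bulk RNA-seq of 24 quadriceps libraries was analysed from 1 deposited table. The authors pseudoaligned reads with kallisto to the Ensembl GRCm39 transcripts, summed transcripts to gene symbols, kept genes above 1 CPM in at least 3 libraries, scaled the libraries by the TMM method of edgeR and deposited log2 CPM with a prior count of 2. Of 14160 rows, 1 without a symbol was left out. The files hold no library totals; the lowest deposited value fits a mean effective library of 25149678 counts, for which 3 counts make 0.119 CPM.

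Differences between group means were tested with limma 3.58.1 in R 4.3.3 (empirical Bayes with a trend, 2-sided, 1 coefficient per group over all 24 libraries, Benjamini-Hochberg over 14159 genes), because the values are not counts. Exact permutation of 3 against 3 libraries cannot give a p under 0.10. The fit was run on simulated data with known differences and independent noise. Those data held no outlying library such as MRL PE replicate 2, so they cannot show how such a library moves calls. Groups came from the labels, which give no batch. Replicates have no stated pairing, so same-numbered libraries were checked for shared deviations. In 1 comparison, MRL against B6 with PE, all 3 correlations were over 0.1 (0.105, 0.532 and 0.439), and a replicate block there left 2 members called.

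The members and gene lists were chosen with earlier results of these data known. Genes of the lists were named by a rule (up to 3 higher and 3 lower per comparison, by size among those called), and the 5 genes most like B2m, H2-D1, H2-K1 and Cd1d1 by Pearson's r (H2-Q10 was added later). Pdia3, Tapbp, Psmb8, Nlrc5, Psmb5, H2-T24 and Cd4 were named after their values were seen. Sequences were read from GRCm39 with GENCODE vM39 and aligned with MAFFT 7.526.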

Additional observations from a re-analysis of the deposited data

How the results depend on the processing

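The number of members called was recomputed under the alternatives of pseudocount, filter, scaling, library weights, prior variance, samples in the fit, replicate block and left-out libraries. No difference of a member that was called in the fit used above changed its sign. The signs of differences that were not called were not compared. With library weights more members were called, in the strain comparisons 8 with saline, 8 with PE and 9 over 4 treatments, and for PE against saline 8 in B6, 9 in MRL and 5 as an interaction (30.5% of all genes). For PE against ECM these weights gave 6 members in B6 and 8 in MRL, beside 39.4% and 16.3% of all genes. They also gave 3 members for saline against uninjured in B6, 1 over both strains and 1 as an interaction, and 1 for ECM against saline in B6. In the same order 33.8%, 15.1%, 6.47% and 15.7% of all genes were called. These weights ran from 0.057 for MRL PE replicate 2 to 56.3 for B6 PE replicate 1, their estimation gave a convergence warning, and they raised the share of all genes called to 68.1% for PE against saline in B6. For PE against ECM in MRL, 1 member was called after low genes (mean log2 CPM under 1) were dropped, and 3 with libraries scaled to equal totals. The shares of all tested genes called were 2.04% and 5.06%. With only the groups compared in the fit, the PE strain comparison gave 1 member and PE against saline over both strains 4. A replicate block changed no count, with 2 members in the PE strain comparison and 7 for PE against saline over both strains. Leaving out 1 library at a time, the strain counts ran from 2 to 3 in uninjured muscle, 3 to 3 with saline, 2 to 3 with ECM, 2 to 6 with PE and 4 to 6 over 4 treatments. The counts for PE against saline ran from 0 to 3 in B6, 0 to 6 in MRL and 6 to 7 over both strains, and for PE against ECM from 0 to 0, 0 to 5 and 3 to 9. The other counts stayed at 0. The log2 difference of the summed heavy chains ran from -1.79 to -1.58 between strains and from 1.501 to 1.82 for PE against saline. Of the values of single members that were called in the fit used above, 548 kept their call under these alternatives and 38 lost it. Calls gained under an alternative are not part of this tally. The cause of these shifts was not tested.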
